A study of Mus musculus with 9 samples.

Results

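Potassium channel subunit genes were described in spinal cord RNA from mice, as every gene whose symbol begins with Kcn, a family letter and a number. The rule found 98 of the 34745 genes in the deposited tables. They comprised 30 pore-forming subunits of voltage-gated channels, 10 silent modifier subunits, 12 voltage-gated auxiliary subunits, 12 subunits of calcium- or sodium-activated channels, 14 tandem-pore leak channels, 15 inward rectifiers (the Kcnj genes) and 5 antisense or other non-coding transcripts that share the prefix. The groups were the HBO group (spinal cord injury followed by hyperbaric oxygen), the SCI group (injury alone) and the sham group, labelled as uninjured, with 3 RNA-seq libraries each. All were wild type C57BL/6 mice aged 7 to 9 weeks, and the tissue was taken on day 7 after injury. Nothing in the labels states that replicate libraries came from different animals, so p-values measure the spread between these libraries, which may be technical. Neither the oxygen dosing nor the level of the lesion is given in the labels.

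Potassium channels let potassium leave or enter a cell and so set its resting potential and end its action potentials. Voltage-gated (Kv) channels open on depolarisation and are assembled from pore-forming subunits, with silent subunits and cytoplasmic or membrane auxiliary subunits that tune or traffic them. Inward rectifiers (Kir) pass potassium more readily inward. In the central nervous system Kir4.1, the product of Kcnj10, is carried by astrocytes and oligodendrocytes and takes part in clearing potassium released by active neurons, whereas most Kv channels sit on neurons and their axons.

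Libraries held 11159587 to 15715484 counts over all genes. Of the 98 genes, 96 had a count in at least 1 library, and Kcnmb3 and Kcnk18 were at 0 in all 9. After the filter on low counts 78 were tested; the other 20 had a mean of at most 0.703 CPM (a gene's counts relative to the library size scaled by TMM) in any group. Among the 15 Kcnj genes, Kcnj1, Kcnj4, Kcnj5 and Kcnj13 were not tested. A level or difference in bulk tissue cannot tell fewer cells of a type from less RNA per cell. Neuronal marker genes were lower after injury. Of 15 listed markers, 14 were called lower in the SCI group than in the sham group (93.3%, against 16.6% of all genes tested). The count was 8 without sham library 1 and 9 without SCI library 1 or 2. The mean log2 CPM of the markers was 8.39, 7.58 and 8.10 in HBO, 7.54, 8.0 and 8.07 in SCI and 9.01, 8.64 and 8.85 in sham libraries.

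Per unit length, Kcnj10 was the highest of all subunit genes in every group. Its deposited FPKM (a read count scaled by gene length and depth) averaged 218 ± 30.8 in HBO, 236 ± 32.3 in SCI and 252 ± 2.63 in sham libraries (SD, n = 3 each). The subunits of juxtaparanodal Kv1 channels of myelinated axons, Kcna1 and Kcna2, were at 51.4 ± 4.35 and 46.8 ± 4.37 FPKM in sham libraries, which differed by about their own spread. Kcnk9, Kcnab2, Kcnk1 and Kcnc1 were also among the 8 highest in sham libraries, at 35.0 ± 5.61, 34.4 ± 5.66, 30.2 ± 1.70 and 23.0 ± 3.15 FPKM, and the first 3 of these did not differ beyond their spread in FPKM. Kcnk9 held its place only by FPKM. The gene length implied by the deposited FPKM ranged over the members from 0.0983 to 2.89 times the summed exon length in GENCODE vM21. With CPM per kilobase of that exon length Kcnk9 ranked 47, whereas the other genes named here ranked between 1 and 7. On that scale Kcnab2 and Kcnk1 lay apart in sham libraries, at 72.8 ± 12.7 and 31.0 ± 2.09.

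The members together took 5217, 3761 and 5058 CPM in HBO, 3789, 4568 and 5032 CPM in SCI and 7379, 6449 and 6723 CPM in sham libraries. HBO library 2 and SCI library 1 were the lowest, and the same libraries were lowest in the mean of the neuronal markers; the part of neuronal content in these sums was not tested. Voltage-gated subunits of all kinds summed to 2326 ± 561 CPM in HBO, 2122 ± 440 in SCI and 4026 ± 446 in sham libraries, and no HBO or SCI library reached the lowest sham library. Inward rectifiers summed to 1363 ± 184 CPM in HBO, 1417 ± 157 in SCI and 1564 ± 17.8 in sham libraries, most of it Kcnj10, and SCI library 3 at 1598 CPM was above all sham libraries. Inward rectifiers therefore took 27.5% to 30.7% of the members' CPM in HBO, 28.8% to 35.4% in SCI and 21.0% to 24.1% in sham libraries, a share of reads that also rests on gene length.

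The first comparison asked what spinal cord injury changed by day 7. Of the 78 subunit genes tested, 42 fell and 7 rose in SCI relative to sham libraries (edgeR quasi-likelihood test, Benjamini-Hochberg adjusted p under 0.05 over all 17901 genes tested). Over all genes 16.6% were called lower and 20% higher. The median log2 fold change was -0.87 for the members and 0.00 for all genes. The groups did not overlap for 49 members that were lower and 7 that were higher in SCI libraries, against 26.3% and 27.6% of all genes. The fall ran through most families of voltage-gated pore-forming genes, of which 18 of 26 tested fell and 1 rose, with a median of -0.93. Of the EAG, ERG and ELK genes 5 of 6 fell, while 3 of 6 Kv1 genes and 1 of 3 Kv4 genes did. Over the 42 members that fell, of all classes, the log2 fold change ran from -1.98 (Kcnj16) to -0.64 (Kcnk1).

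**Figure D1:**
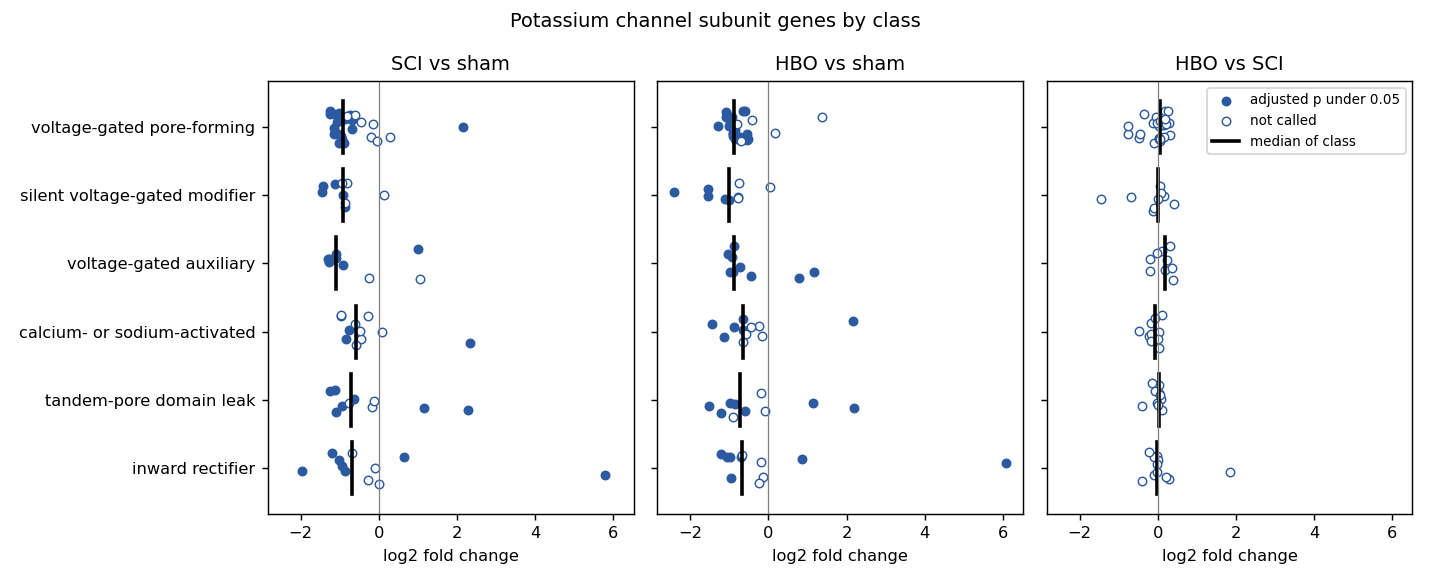
Log2 fold change of the tested subunit genes in SCI vs sham, HBO vs sham and HBO vs SCI (x axis), with 1 row per class; each circle is a gene, filled where the edgeR adjusted p was under 0.05, and the bar is the class median. The voltage-gated pore-forming median is -0.93 in SCI vs sham, and no circle is filled in HBO vs SCI; antisense and other transcripts are not drawn.

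Abundant voltage-gated genes showed the fall in each library. Kcnc1, encoding Kv3.1 of fast-spiking neurons, fell to 83.8, 141 and 123 CPM in SCI libraries, against 296, 222 and 247 CPM in sham libraries, a log2 fold change of -1.14 ± 0.23 (SE; edgeR adjusted p = 0.00453), so that all SCI libraries were below all sham libraries. Kcnc2, for the related Kv3.2, averaged 28.4 ± 8.54 CPM in SCI and 63.0 ± 3.98 in sham libraries. Kv3 channels repolarise the membrane quickly and allow high firing rates.

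Kcna2 had 304, 452 and 475 CPM in SCI libraries, against 924, 770 and 786 CPM in sham libraries, and its log2 fold change was -1.01 ± 0.22 (edgeR adjusted p = 0.00653). Kcna1 had 205, 262 and 292 CPM in SCI libraries, against 450, 378 and 390 CPM in sham libraries, a smaller log2 fold change of -0.68 ± 0.17 (edgeR adjusted p = 0.0107). The cytoplasmic beta subunit that joins Kv1 channels, Kcnab2, fell to 136, 210 and 224 CPM in SCI libraries, against 486, 354 and 376 CPM in sham libraries (log2 fold change -1.09 ± 0.25, edgeR adjusted p = 0.00742). In all of these, the lowest sham library lay above the highest SCI library. Kcnab1, another beta subunit, averaged 47.0 ± 12.6 CPM in SCI and 113 ± 11.3 in sham libraries (log2 fold change -1.27 ± 0.24, edgeR adjusted p = 0.00341). Cntnap2, which holds Kv1 channels at the juxtaparanode, also fell, with a log2 fold change of -1.17 ± 0.25 in SCI relative to sham libraries (edgeR adjusted p = 0.0058). Kcna3, the Kv1.3 subunit known from T cells and microglia, had 8.55, 6.93 and 6.77 CPM in SCI libraries, against 9.02, 7.92 and 8.81 CPM in sham libraries, and was not called (log2 fold change -0.21, 95% interval -0.58 to 0.16).

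Kcnb2, encoding the delayed rectifier Kv2.2, had 14, 27.6 and 25.6 CPM in SCI libraries, against 59.9, 50.6 and 48.9 CPM in sham libraries (log2 fold change -1.25 ± 0.28, edgeR adjusted p = 0.00651). Kcnd2, for the A-type subunit Kv4.2, averaged 44.6 ± 5.92 CPM in SCI and 82.0 ± 3.03 in sham libraries (log2 fold change -0.88 ± 0.15, edgeR adjusted p = 0.00206). The EAG channel genes Kcnh1 and Kcnh5 fell by similar amounts, with log2 fold changes of -1.05 ± 0.17 and -1.06 ± 0.19 (edgeR adjusted p = 0.00193 and 0.00256).

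Most of the tested auxiliary and silent subunit genes fell as well. Of 9 auxiliary genes tested 6 fell and 1 rose (66.7% and 11.1%, against 16.6% and 20% of all genes), with a median log2 fold change of -1.09. Those that fell were all 3 Kv beta genes and 3 of 4 KChIP genes, which bind Kv4 channels. The beta subunit gene Kcnab3 averaged 25.2 ± 6.78 CPM in SCI and 62.4 ± 12.6 in sham libraries (log2 fold change -1.31 ± 0.27, edgeR adjusted p = 0.00432). The KChIP gene outside this count, Kcnip3, had 42.2, 47.1 and 50.1 CPM in SCI libraries, against 64.3, 47.3 and 53.8 CPM in sham libraries, which overlapped. Of 9 silent subunit genes 5 fell and 0 rose in edgeR (55.6% and 0%), with a median of -0.91. Of these 9 genes, 6 had an unadjusted p under 0.05 in edgeR, a level reached by 46.4% of all genes. Kcng1, which cannot form a channel without pore-forming partners, averaged 2.63 ± 0.583 CPM in SCI and 7.19 ± 1.38 in sham libraries, and Kcns2, of the same kind, averaged 2.15 ± 0.456 and 5.82 ± 1.25 CPM in SCI and sham libraries (log2 fold changes -1.45 ± 0.28 and -1.43 ± 0.28, edgeR adjusted p = 0.00376 and 0.00361).

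**Figure D2:**
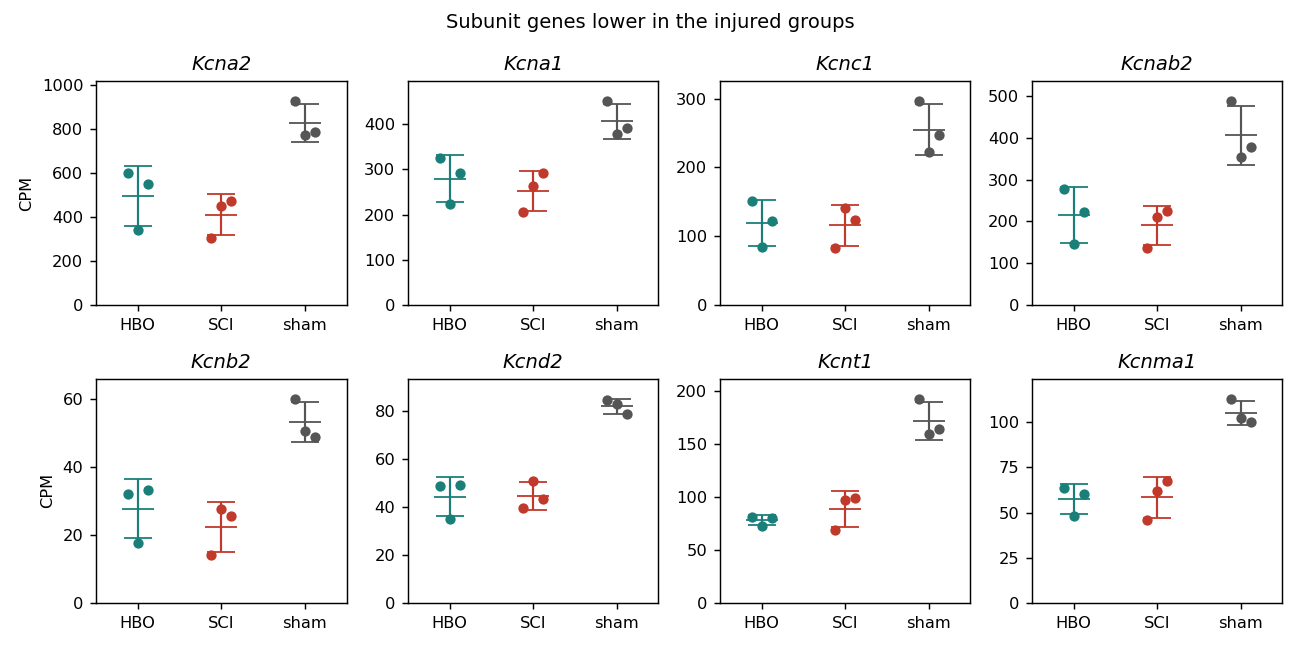
CPM (y axis, from 0) of 8 subunit genes in the 3 libraries each of HBO, SCI and sham (x axis); points are libraries, and the crossbar with whiskers is the mean ± SD. All 8 genes have their sham libraries above their SCI and HBO libraries, with Kcna2 at 304, 452 and 475 CPM in SCI and 924, 770 and 786 CPM in sham libraries.

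Calcium- and sodium-activated channels were mixed, with 3 of 11 tested genes lower and 1 higher in SCI libraries (27.3% and 9.09%, against 16.6% and 20% of all genes). Their median log2 fold change was -0.58. Kcnt1, the sodium-activated Slack channel, had 68.7, 97.3 and 99.3 CPM in SCI libraries, against 192, 159 and 164 CPM in sham libraries. All SCI libraries were below all sham libraries, and at -0.96 ± 0.15 it had the smallest p of the members that fell (edgeR adjusted p = 0.00138). Kcnma1, the pore of the large-conductance BK channel, averaged 58.4 ± 11.4 CPM in SCI and 105 ± 6.76 in sham libraries (log2 fold change -0.85 ± 0.16, edgeR adjusted p = 0.00299). Its neuronal beta subunit Kcnmb4 averaged 6.33 ± 2.12 CPM in SCI and 7.66 ± 0.449 in sham libraries and was not called, with a 95% interval of the log2 fold change of -0.87 to 0.32. Exons of Kcnmb4 lie opposite Kcnmb4os1 and Kcnmb4os2 over 31.5% of their bases, where reads cannot be told apart if counting ignored strand. Kcnn2, the small-conductance SK2 channel, averaged 21.5 ± 3.36 CPM in SCI and 36.5 ± 1.66 in sham libraries (log2 fold change -0.76 ± 0.15, edgeR adjusted p = 0.00345).

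The genes that rose were few and mostly low. Kcnn4, the intermediate-conductance calcium-activated channel known from lymphocytes, red cells and activated microglia, had 6.98, 6.86 and 3.74 CPM in SCI libraries, against 1.04, 0.792 and 1.63 CPM in sham libraries. All SCI libraries were above all sham libraries, and the log2 fold change of 2.32 ± 0.34 had the smallest p of all members (edgeR adjusted p = 0.00114). Kcnk5, the acid-sensitive leak channel TASK-2, had 6.46, 6.72 and 5.18 CPM in SCI libraries, against 1.28, 0.616 and 1.85 CPM in sham libraries (log2 fold change 2.27 ± 0.43, edgeR adjusted p = 0.00323). Kcnk6, the leak channel TWIK2 described in mouse macrophages, had 36.1, 22.5 and 25.1 CPM in SCI libraries, against 9.65, 12.9 and 15.2 CPM in sham libraries (log2 fold change 1.15 ± 0.23, edgeR adjusted p = 0.00398). None of these genes overlapped between the groups. With 0.616 CPM in sham library 2, Kcnk5 passed the filter on low counts only with the injured libraries, where it was high.

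Kcne1l, a single-pass membrane auxiliary subunit, had 48.6, 28.0 and 35.3 CPM in SCI libraries, against 14.8, 20.4 and 21.1 CPM in sham libraries (log2 fold change 0.99 ± 0.22, edgeR adjusted p = 0.00589). Kcnq1, the pore subunit Kv7.1 best known from heart and epithelia, had 2.67, 1.87 and 1.15 CPM in SCI libraries, against 0.558, 0.264 and 0.444 CPM in sham libraries (log2 fold change 2.14 ± 0.47, edgeR adjusted p = 0.00625), while the neuronal Kv7 genes Kcnq3 and Kcnq5 fell. Like Kcnk5, Kcnq1 passed the filter on low counts only with the injured libraries, where it was high. Exons of Kcnq1 lie opposite Kcnq1ot1, which averaged 621 CPM in sham libraries, over 3.0% of their bases. Reads there cannot be told apart if counting ignored strand. Kcne4, also a membrane auxiliary subunit, had 4.96, 2.08 and 2.30 CPM in SCI libraries, against 1.75, 1.14 and 1.55 CPM in sham libraries, and missed the threshold (edgeR adjusted p = 0.0505), which it passed in DESeq2 (adjusted p = 0.0483) and without SCI library 2 or 3 (edgeR adjusted p = 0.0337 and 0.0427). The marker list of microglia and macrophages moved beside these genes: 10 of its 12 genes rose and 0 fell in SCI relative to sham libraries in edgeR (median log2 fold change 1.25), and its mean log2 CPM ranged from 6.43 to 7.02 in HBO, 6.67 to 6.96 in SCI and 4.74 to 5.30 in sham libraries. Other lists moved as well. The fibroblast list had 6 of 6 genes higher (median log2 fold change 4.41) and a mean log2 CPM of 8.80 to 9.64 in HBO, 8.52 to 9.58 in SCI and 3.63 to 5.56 in sham libraries. In edgeR 7 of 8 pericyte and smooth muscle genes, 5 of 6 oligodendrocyte precursor genes, 5 of 8 endothelial genes, 4 of 8 Schwann cell genes and 7 of 10 skeletal muscle genes were also higher in SCI than in sham libraries. Over all genes 20% were called higher. The skeletal muscle count was 0 without SCI library 1 and 1 without any 1 sham library, and 1 gene of that list was lower. The Schwann cell count was 1 without sham library 2 or SCI library 2, and 2 without sham library 1. The part of any of these lists in the rise of Kcnn4, Kcnk5 and Kcnk6 was not tested.

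**Figure D3:**
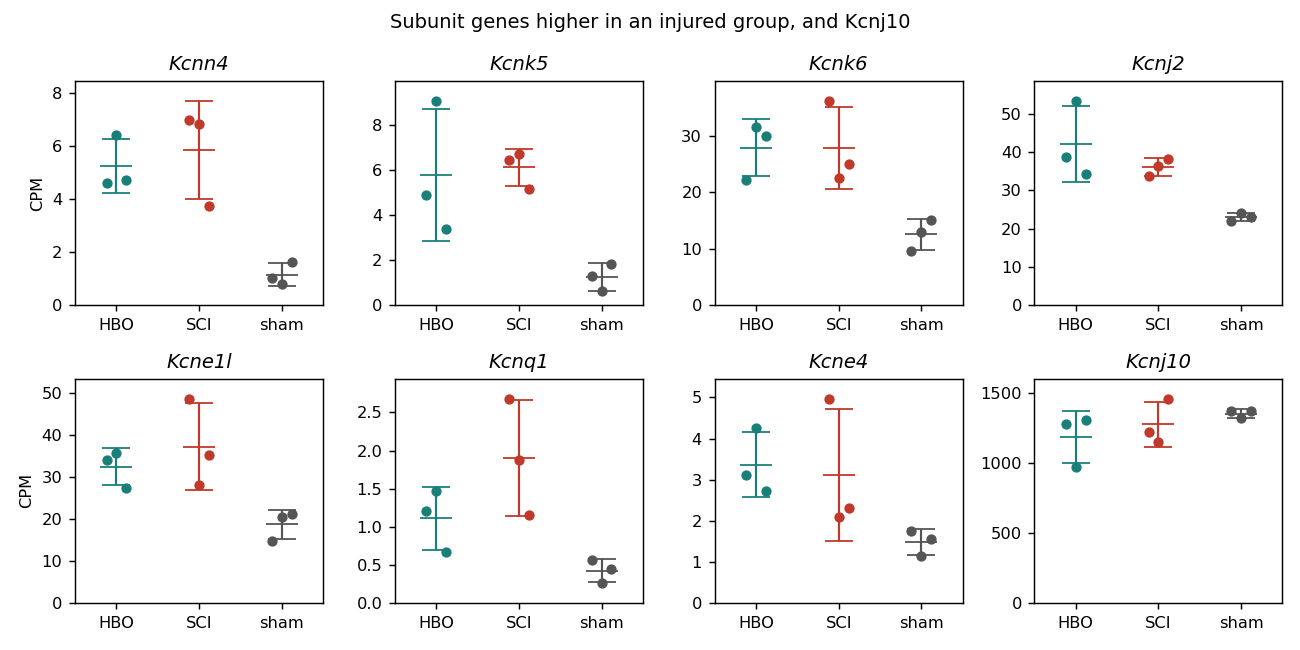
CPM (y axis, from 0) of 7 subunit genes that rose in SCI or HBO relative to sham libraries, and of Kcnj10, by group (x axis: HBO, SCI, sham); points are libraries, and the crossbar with whiskers is the mean ± SD. Kcnn4, Kcnk5, Kcnk6 and Kcnj2 have all HBO and SCI libraries above all sham libraries, whereas the Kcnj10 groups SCI and sham overlap.

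Promoter sequences were available from RefSeq (GRCm38.p6, 250 bases before to 50 after the annotated start) for 71 members, among them 5 of the 7 genes that rose and 27 of the 42 that fell. Of 11 short motifs searched on both strands, the E-box CACGTG lay in the window of Kcnn4, Kcnk5 and Kcnj2, in 1 gene that fell (Kcnab1), in 6 of the 71 members and in 8.09% of 27025 genes with a promoter. The GC box GGGCGG lay in 4 of the 5 rising genes, in 22 of the 27 falling genes and in 38.2% of all. The E-box was picked out after the matches were counted, so these shares describe the windows only. The first 3 windows show CACGTG in capitals, and that of Kcna2, a gene that fell, shows GGGCGG in capitals; the positions are Kcnn4 chr7:24370013-24370312 (plus strand), Kcnk5 chr14:20181733-20182032 (minus strand), Kcnj2 chr11:111065914-111066213 (plus strand) and Kcna2 chr3:107101317-107101616 (plus strand).
Kcnn4: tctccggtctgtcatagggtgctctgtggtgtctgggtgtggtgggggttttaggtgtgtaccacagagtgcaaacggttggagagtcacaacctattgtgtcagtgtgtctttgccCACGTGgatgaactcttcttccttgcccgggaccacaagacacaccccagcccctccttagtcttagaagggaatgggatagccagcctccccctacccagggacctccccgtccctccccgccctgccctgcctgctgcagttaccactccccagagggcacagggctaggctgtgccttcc
Kcnk5: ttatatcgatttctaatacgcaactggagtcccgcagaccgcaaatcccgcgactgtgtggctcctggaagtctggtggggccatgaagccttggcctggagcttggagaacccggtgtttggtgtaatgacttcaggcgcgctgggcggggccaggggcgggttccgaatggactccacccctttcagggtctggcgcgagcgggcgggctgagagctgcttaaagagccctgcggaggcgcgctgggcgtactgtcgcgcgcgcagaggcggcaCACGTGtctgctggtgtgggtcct
Kcnj2: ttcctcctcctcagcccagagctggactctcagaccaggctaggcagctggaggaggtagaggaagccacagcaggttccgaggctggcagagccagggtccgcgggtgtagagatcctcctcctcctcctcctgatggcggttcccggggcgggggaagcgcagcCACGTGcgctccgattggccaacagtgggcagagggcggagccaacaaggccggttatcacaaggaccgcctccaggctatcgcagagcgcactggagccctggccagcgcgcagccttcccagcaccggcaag
Kcna2: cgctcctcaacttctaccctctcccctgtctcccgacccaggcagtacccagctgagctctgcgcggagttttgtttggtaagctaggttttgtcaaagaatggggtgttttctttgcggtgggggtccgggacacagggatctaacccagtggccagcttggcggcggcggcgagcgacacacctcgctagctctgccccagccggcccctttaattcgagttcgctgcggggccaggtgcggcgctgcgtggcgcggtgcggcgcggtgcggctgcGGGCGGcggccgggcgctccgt

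Inward rectifiers differed among themselves in SCI relative to sham libraries, with 5 of 11 tested lower and 2 higher (45% and 18%, against 16.6% and 20% of all genes). Their median log2 fold change was -0.68. That median rests on which genes enter it: over all 15 genes, with no filter on low counts, it was -0.18. Kcnj10 (ENSMUSG00000044708, chr1:172341210-172374085 of GRCm38) had 1220, 1153 and 1459 CPM in SCI libraries, against 1373, 1322 and 1373 CPM in sham libraries. The groups overlapped, and the log2 fold change of -0.09 had a 95% interval of -0.42 to 0.25 (edgeR adjusted p = 0.69). The astrocyte marker list beside it had a median log2 fold change of 0.07. In edgeR 2 of its 10 genes were higher and 2 lower (20% each, against 20% and 16.6% of all genes), and 0 were lower without sham library 2 or SCI library 1. The oligodendrocyte list had a median of -0.29, with 0 of 10 genes higher and 3 lower in edgeR (0% and 30%), and 1 lower without sham library 2 or SCI library 1.

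Of the 4 genes of G-protein-gated channels, which slow neuronal firing when transmitters act on their receptors, 3 fell and Kcnj5 was not tested, at a mean of 0.592 CPM in SCI and 0.684 in sham libraries. Kcnj3 (GIRK1) had 11.3, 26.3 and 22.5 CPM in SCI libraries, against 37.5, 36.1 and 35.8 CPM in sham libraries (log2 fold change -0.87 ± 0.24). Kcnj6 (GIRK2) had 8.74, 18.7 and 13.2 CPM in SCI libraries, against 30.3, 24.4 and 23.9 CPM in sham libraries (log2 fold change -0.95 ± 0.26). Kcnj9 (GIRK3) had 9.27, 17.3 and 14.3 CPM in SCI libraries, against 30.2, 26.3 and 27.2 CPM in sham libraries (log2 fold change -1.03 ± 0.22). SCI library 1 was the lowest for each, no SCI library reached a sham library, and the edgeR adjusted p-values were 0.0189, 0.0164 and 0.00574; the calls of Kcnj3 and Kcnj6 were lost without sham library 1, at -0.85 and -0.84. Exons of Kcnj3 lie opposite another gene, Gm26794, over 31.1% of their bases, and reads of the pair cannot be told apart if counting ignored strand.

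Kcnj11, the Kir6.2 pore of ATP-sensitive channels, had 3.92, 6.72 and 5.11 CPM in SCI libraries, against 14.7, 11.3 and 10.4 CPM in sham libraries (log2 fold change -1.21 ± 0.26, edgeR adjusted p = 0.00591). Kcnj8, the Kir6.1 pore found in vascular smooth muscle and pericytes, had 8.35, 5.75 and 5.11 CPM in SCI libraries, against 5.74, 7.74 and 5.85 CPM in sham libraries, overlapping, with a 95% interval of the log2 fold change of -0.57 to 0.56. Kcnj2, the strong rectifier Kir2.1 of many cell types, rose to 33.7, 36.5 and 38.3 CPM in SCI libraries, against 21.9, 24.1 and 23.1 CPM in sham libraries (log2 fold change 0.65 ± 0.16, edgeR adjusted p = 0.0101). Its close relatives were not called: Kcnj12 (Kir2.2) averaged 10.1 ± 0.639 CPM in SCI and 12.3 ± 1.58 in sham libraries, and Kcnj14 (Kir2.4) averaged 8.28 ± 2.25 CPM in SCI and 13.3 ± 1.02 in sham libraries. Kcnj14 was called lower, however, in the fit of only the 2 groups (edgeR adjusted p = 0.0342) and without HBO library 2 (edgeR adjusted p = 0.0448). Whether Kcnj2 differed from these relatives was not tested.

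**Figure D4:**
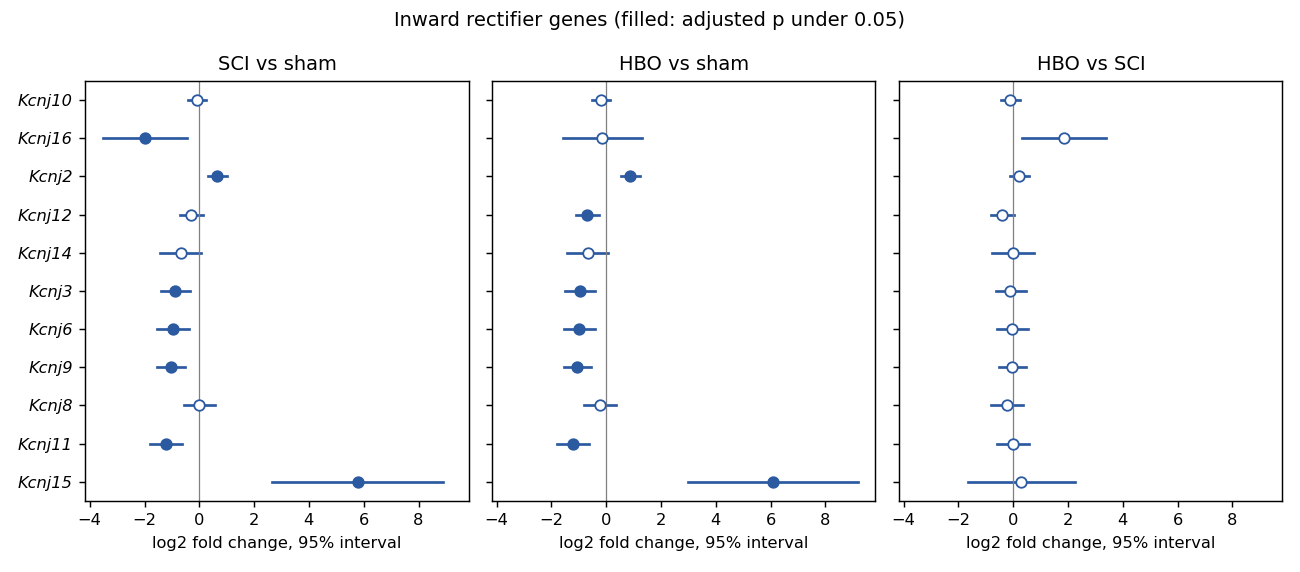
Log2 fold change of the 11 tested Kcnj genes (x axis, with 95% interval) in SCI vs sham, HBO vs sham and HBO vs SCI; a filled circle has an edgeR adjusted p under 0.05. Kcnj10 lies near 0 in the 3 panels, Kcnj3, Kcnj6, Kcnj9 and Kcnj11 lie below 0 against sham, and Kcnj15 and Kcnj16 have the widest intervals.

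In a few genes single libraries stood apart from the others of their group. Kcnj15, encoding Kir4.2 of epithelia, had 17.8, 19.1 and 0.216 CPM in SCI libraries, against 0, 0.528 and 0.148 CPM in sham libraries, with 8.84, 27.6 and 9.43 CPM in HBO libraries. SCI library 3 was at the sham level, so SCI and sham overlapped, although the log2 fold change of 5.79 ± 1.40 was called (edgeR adjusted p = 0.00962) and was 6.36 without that library and 7.17 without sham library 2. Kcnj15 passed the filter on low counts only with the injured libraries where it was high. Kcnj16, the Kir5.1 subunit that joins Kir4.1, had 7.96, 11.4 and 17.6 CPM in SCI libraries, against 9.65, 77.9 and 58.4 CPM in sham libraries. Sham library 1 lay within the SCI range, and the log2 fold change of -1.98 ± 0.70 (edgeR adjusted p = 0.0466) lost its call when any one of 6 of the 9 libraries was left out, at -1.47 without sham library 2, -1.83 without sham library 3, -1.74, -1.93 and -2.33 without SCI libraries 1, 2 and 3, and -1.98 without HBO library 2.

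Kcna6, a Kv1.6 pore subunit, had 44.9, 34.5 and 35.2 CPM in HBO, 33.7, 34 and 128 CPM in SCI and 39.2, 42.1 and 119 CPM in sham libraries. SCI library 3 and sham library 3 stood well above the other 7, which ran from 33.7 to 44.9 CPM. Exons of Kcna6 lie opposite Gm26673 over 39.6% of their bases in GENCODE vM21. Gm26673 was at 18.4 CPM in SCI library 3 and 15.9 and 18.7 CPM in SCI libraries 1 and 2. The deposited FPKM imply a Kcna6 length 2.89 times that exon length, so the gene model that was counted may differ. The part of shared reads in the Kcna6 levels was not tested. Kcna7, a muscle subunit that was not tested, had 1.83 CPM in SCI library 1 and 0.139 and 0.144 CPM in SCI libraries 2 and 3. The skeletal muscle list was also highest in SCI library 1, with a mean log2 CPM of 5.71, against 3.19 and 0.80 in SCI libraries 2 and 3.

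**Figure D5:**
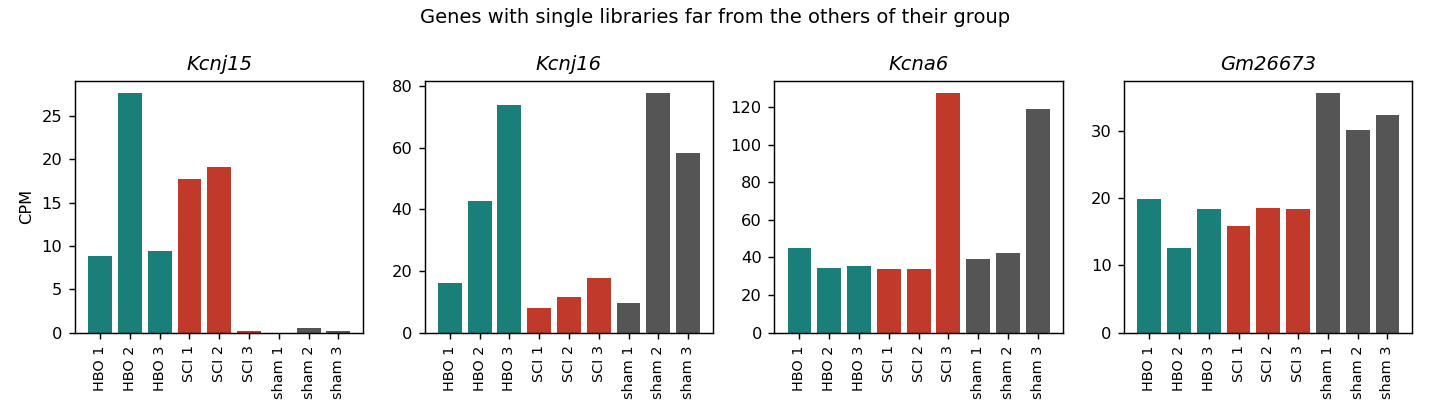
CPM (bars, y axis from 0, own scale per panel) of Kcnj15, Kcnj16, Kcna6 and Gm26673 in each HBO, SCI and sham library (x axis). SCI library 3 is at 0.216 CPM for Kcnj15 beside 17.8 and 19.1 CPM in SCI libraries 1 and 2, and SCI library 3 and sham library 3 stand apart for Kcna6 but not for Gm26673.

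Tandem-pore leak channels included genes called in both directions. Of 10 tested, 5 fell and 2 rose in SCI relative to sham libraries (50% and 20%, against 16.6% and 20% of all genes). The share that rose was thus that of all genes, and the median log2 fold change was -0.71. Kcnk9, the acid-sensitive TASK-3, had 13.1, 18 and 22 CPM in SCI libraries, against 47.8, 44.0 and 34.6 CPM in sham libraries (log2 fold change -1.25 ± 0.26, edgeR adjusted p = 0.00468). Kcnk1, the weak rectifier TWIK1, had 41.2, 40.5 and 51.3 CPM in SCI libraries, against 72.0, 63.9 and 72.0 CPM in sham libraries (log2 fold change -0.64 ± 0.17, edgeR adjusted p = 0.0131), a call lost without SCI library 1, at -0.59. Both kept apart from sham libraries in every SCI library. Kcnk13, the THIK-1 channel known from microglia, averaged 19.9 ± 2.31 CPM in SCI and 22.4 ± 0.848 in sham libraries, and Kcnk2, the stretch-sensitive TREK-1, averaged 20.2 ± 3.27 CPM in SCI and 22.2 ± 2.09 in sham libraries. Neither was called, with 95% intervals of the log2 fold change of -0.49 to 0.16 and -0.47 to 0.21. Exons of Kcnk2 lie opposite A430027H14Rik over 12.2% of their bases, with the same limit on strand.

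Of the 5 antisense or other transcripts, 2 were tested. Kcnq1ot1, the long RNA that silences genes in cis at the imprinted Kcnq1 locus, had 528, 543 and 706 CPM in HBO, 466, 522 and 560 CPM in SCI and 639, 624 and 601 CPM in sham libraries and was called in no comparison. All its SCI libraries were below all sham libraries, at a log2 fold change of -0.27 with a 95% interval of -0.57 to 0.04. Kcnd3os, opposite the Kv4.3 gene, averaged 0.195 ± 0.180 CPM in HBO, 0.484 ± 0.305 in SCI and 1.04 ± 0.412 in sham libraries. At these few counts it passed the filter only with libraries outside the HBO group, where it was higher. It was called lower in HBO than in sham libraries (edgeR adjusted p = 0.0333), but not when any 1 of sham libraries 1, 2 and 3 or HBO libraries 2 and 3 was left out, at -1.94, -2.47, -2.47, -2.41 and -1.79 in place of a log2 fold change of -2.31. Kcnd3os shares 12.2% of its exon bases with Kcnd3 on the opposite strand, so without a stated strand setting their reads cannot be told apart there.

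Genes that work with these channels were set beside them. Of 18 tested partner genes, which anchor or modify potassium channels, 12 fell and 0 rose in SCI relative to sham libraries in edgeR (66.7% and 0%, against 16.6% and 20% of all genes). Their median log2 fold change was -0.77. Dpp6 and Dpp10, membrane partners of Kv4 channels, fell with log2 fold changes of -0.94 ± 0.19 and -1.36 ± 0.18 (edgeR adjusted p = 0.0039 and 0.000809). Of 15 pump and cotransporter genes that move potassium, 4 fell and 4 rose (26.7% each, against 16.6% and 20% of all genes). The neuronal cotransporter Slc12a5 (log2 fold change -1.20 ± 0.23, edgeR adjusted p = 0.00335) fell, whereas the cotransporter Slc12a7 rose (1.54 ± 0.28, edgeR adjusted p = 0.00286). Of the 4 HCN pacemaker genes, 3 fell (75%, against 16.6% of all genes), among them Hcn2 (log2 fold change -0.63 ± 0.16, edgeR adjusted p = 0.0106).

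The second comparison asked whether hyperbaric oxygen changed these genes in injured cord. In HBO relative to SCI libraries 0 of 78 members were called by edgeR, and DESeq2 also called 0. Over all genes edgeR called 0 of 17901, or 0%, while DESeq2 called 25 genes higher and 1 lower. With an unadjusted p under 0.05 there were 3 members, against 4.18% of all genes, and the members' median log2 fold change was 0.01. The groups did not overlap for 3 members that were lower and 0 that were higher in HBO libraries, against 4.07% and 3.96% of all genes. The median was 0.05 for voltage-gated pore-forming genes and -0.03 for inward rectifiers.

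The members with the smallest unadjusted p did not all share a class, though Kcnj16 and Kcnj12 are both inward rectifiers and Kcna3 and Kcnq1 both voltage-gated pore-forming genes. Among these members Kcng3, a silent subunit, had 0.283, 0.155 and 0.744 CPM in HBO libraries, against 0.848, 1.11 and 1.30 CPM in SCI libraries, without overlap at a level of few counts (log2 fold change -1.46 ± 0.51, edgeR adjusted p = 0.959). Kcng3 passed the filter on low counts only with libraries outside the HBO group, where it was higher. Kcnj16 had 16.2, 42.8 and 74.0 CPM in HBO libraries, against 7.96, 11.4 and 17.6 CPM in SCI libraries, which overlapped (log2 fold change 1.84 ± 0.69, edgeR adjusted p = 0.959). Kcnj12, Kcna3 and Kcnq1 followed with log2 fold changes of -0.40 ± 0.19, -0.34 ± 0.17 and -0.77 ± 0.41.

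The intervals show which differences between HBO and SCI libraries the data leave possible. For Kcnj10, with 1280, 973 and 1313 CPM in HBO and 1220, 1153 and 1459 CPM in SCI libraries, the log2 fold change of -0.10 had a 95% interval of -0.44 to 0.23. For Kcna2, with 600, 343 and 548 CPM in HBO and 304, 452 and 475 CPM in SCI libraries, it was 0.28 (-0.22 to 0.77). HBO library 2 and SCI library 1 were the lowest of their groups for Kcna2, as they were for the neuronal markers. For Kcnn4 it was -0.16 (-0.83 to 0.50), for Kcnj2 0.22 (-0.13 to 0.57) and for Kcnj15 0.30 (-1.65 to 2.26).

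The third comparison set HBO libraries against the same sham libraries. Of 78 members, 50 fell and 7 rose (edgeR, adjusted p under 0.05), against 13.5% of all genes lower and 17.4% higher, and the members' median log2 fold change was -0.79. The groups did not overlap for 58 members that were lower and 8 that were higher in HBO libraries, against 23% and 24.2% of all genes. The count of 50 fell to 22 without sham library 1, to 21 without HBO library 2 and to 33 without HBO library 3. Over all genes the lower calls fell as well, from 2422 to 987, 1051 and 1711 in these fits. Voltage-gated pore-forming genes had 21 of 26 lower and 0 higher in edgeR (median -0.87), with 23 at an unadjusted p under 0.05, a level reached by 42.4% of all genes. Inward rectifiers had 5 of 11 lower and 2 higher (median -0.68, or -0.23 over all 15 genes with no filter on low counts). The neuronal markers had 10 of 15 lower, but 2, 6 and 5 without sham libraries 1, 2 and 3, and 4 and 6 without HBO libraries 2 and 3.

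Kcnt1 again had the smallest p among members that fell, at 81.3, 72.3 and 80.2 CPM in HBO libraries, against 192, 159 and 164 CPM in sham libraries (log2 fold change -1.14 ± 0.15, edgeR adjusted p = 0.000925). Kcnd2 averaged 44.3 ± 8.09 CPM in HBO and 82.0 ± 3.03 in sham libraries (log2 fold change -0.89 ± 0.15, edgeR adjusted p = 0.00253). Kcnma1 averaged 57.5 ± 8.15 CPM in HBO and 105 ± 6.76 in sham libraries (log2 fold change -0.87 ± 0.16, edgeR adjusted p = 0.00356). All HBO libraries were below all sham libraries for these 3 genes. Kcnc4, the fast-inactivating Kv3.4, had 43.8, 21.7 and 28.2 CPM in HBO libraries, against 76.9, 58.8 and 62.0 CPM in sham libraries.

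Lower-expressed genes fell too. Kcng3 averaged 0.394 ± 0.310 CPM in HBO and 2.08 ± 0.546 in sham libraries (log2 fold change -2.41 ± 0.48, edgeR adjusted p = 0.00555). It passed the filter on low counts only with libraries outside the HBO group, where it was higher. Kcnk12, a THIK-2 leak channel, averaged 4.80 ± 2.58 CPM in HBO and 13.9 ± 2.43 in sham libraries (log2 fold change -1.52 ± 0.32, edgeR adjusted p = 0.00637). Kcnq5, a subunit of the M-current that restrains repetitive firing, averaged 11.2 ± 1.66 CPM in HBO and 20.1 ± 2.0 in sham libraries. Kcnj9 averaged 13.3 ± 2.56 CPM in HBO and 27.9 ± 2.06 in sham libraries (log2 fold change -1.07 ± 0.22, edgeR adjusted p = 0.00677). Kcnj12 had 9.55, 6.43 and 6.87 CPM in HBO libraries, against 13.4, 10.5 and 13 CPM in sham libraries, and was called lower (log2 fold change -0.69 ± 0.19, edgeR adjusted p = 0.0201), but not without sham library 1 or 3 or HBO library 2 or 3, at -0.62, -0.65, -0.58 and -0.62. Among abundant voltage-gated genes Kcnc1 kept its call with any 1 library left out, at -1.29 to -0.89 against a log2 fold change of -1.09. By contrast Kcna1, Kcna2 and Kcnab2 were called lower with log2 fold changes of -0.54 ± 0.17, -0.73 ± 0.22 and -0.91 ± 0.25, and each lost its call without sham library 1, at -0.46, -0.65 and -0.77, HBO library 2, at -0.40, -0.53 and -0.70, or HBO library 3, at -0.57, -0.81 and -0.94. Kcna1 and Kcna2 also lost it without sham library 2, at -0.59 and -0.78, or sham library 3, at -0.57 and -0.77, and with the replicate block (edgeR adjusted p = 0.057 and 0.0514), and Kcna1 without SCI library 2 (edgeR adjusted p = 0.0501). HBO library 2, the lowest library for the neuronal markers in its group, was the lowest of the HBO libraries for Kcna1, Kcna2 and Kcnab2.

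Among genes higher in HBO than in sham libraries, Kcnn4 had 4.6, 6.43 and 4.71 CPM in HBO libraries, against 1.04, 0.792 and 1.63 CPM in sham libraries (log2 fold change 2.16 ± 0.35, edgeR adjusted p = 0.00205). Kcnk5 and Kcnk6 had log2 fold changes of 2.18 ± 0.43 and 1.15 ± 0.23 (edgeR adjusted p = 0.00505 and 0.00534). Kcnj2 had 38.6, 53.3 and 34.4 CPM in HBO libraries, against 21.9, 24.1 and 23.1 CPM in sham libraries (log2 fold change 0.87 ± 0.16, edgeR adjusted p = 0.00374). In contrast to the SCI libraries, all 3 HBO libraries had Kcnj15 above all sham libraries (log2 fold change 6.09 ± 1.40, edgeR adjusted p = 0.00981). On sham counts of 0, 6 and 2, that value was 7.48 without sham library 2 and 5.35 without HBO library 2. Kcne4 was called (log2 fold change 1.17 ± 0.38, edgeR adjusted p = 0.0405), but not when any 1 of the 6 HBO and sham libraries was left out (edgeR adjusted p from 0.0529 to 0.138) nor with the replicate block (0.0509). Kcnq1 was not called (1.37 ± 0.50, edgeR adjusted p = 0.0584), and neither gene was called between HBO and SCI libraries. Kcnj10 averaged 1189 ± 188 CPM in HBO and 1356 ± 29.2 in sham libraries; all HBO libraries were below all sham libraries, by a log2 fold change of -0.19 with a 95% interval of -0.52 to 0.14.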

How the data were processed

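Spinal cord RNA was taken up in Trizol and libraries were made from it with an Illumina protocol, per the labels' protocols. The submitters' processing notes name HISAT2 and the GRCm38 (mm10) build; which tool counted reads, with which strand setting and annotation, is not given in the sources used here. Each deposited table gives the authors' read counts as whole numbers, and FPKM that the authors scaled by length and depth.

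Counts of all genes kept by filterByExpr (17901) were tested with edgeR 4.0.16 in R 4.3.3, by the quasi-likelihood test with TMM scaling and 1 mean per group over 9 libraries, with Benjamini-Hochberg adjustment over all genes and a threshold of 0.05. The SE was derived from the log2 fold change and the F statistic, and intervals are 95%. CPM use TMM-scaled library sizes, and log2 CPM a prior count of 2. FPKM were used for levels between genes only. In the 70 members with 10 counts or more in every library, the length implied by FPKM was constant across libraries, with a relative spread of at most 5.4e-05. Of the members, 19 share 5% or more of their exon bases with a gene on the other strand. The script was tested on simulated data.

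The members and gene lists were chosen with earlier results of these data known. Named genes are, per comparison with sham, up to 12 called members per direction with the smallest p and at least 1 CPM in the higher group; the 6 smallest p for HBO vs SCI; the 8 highest FPKM in sham; all Kcnj genes of at least 1 CPM; and a panel of well-studied members. Kcna6, Kcna7, Kcnq1ot1 and Kcnd3os, and Kcne4, Kcnb2, Kcnab3, Kcnq3 and Kcnq5 in the SCI comparison, and the HBO vs SCI values of Kcnj10, Kcna2, Kcnn4, Kcnj2 and Kcnj15, were added after their values were seen, as were the named partner, cotransporter and HCN genes. A few genes that the rule picks are not reported here. Comparisons with sham share the same sham libraries. Alternatives were 2 other scalings, 2 other filters, DESeq2 1.42.0, a fit of only the 2 groups compared, a replicate block and leaving out each library.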

Additional observations from a re-analysis of the deposited data

How the results depend on the processing

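The 7 other settings (2 scalings, 2 filters, DESeq2, only the groups compared, the replicate block) gave 6 to 9 members higher and 41 to 45 lower in SCI vs sham. Leaving out each library gave 7 to 8 higher and 33 to 43 lower. In HBO vs sham the number lower ranged from 21 to 51 over left-out libraries, while that of all genes ranged from 987 to 2643. The median of inward rectifiers was -0.18 without a low-count filter and -0.20 with DESeq2 in SCI vs sham, and -0.23 and -0.24 in HBO vs sham, against -0.68 in both; these alternatives take in all 15 genes in place of 11. Same-numbered libraries showed no sign of pairing, with correlations of deviations from -0.18 to 0.14. Of 9 libraries, 3 correlated best with their own number. With 3 libraries per group this check cannot exclude pairs. With the replicate block 7 members were higher and 41 lower in SCI vs sham, 0 and 0 in HBO vs SCI, and 6 and 44 in HBO vs sham. No scaling moved the median of all genes by 0.1.

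For genes named with a test, 353 of 356 values under the other settings in SCI vs sham, 77 of 77 in HBO vs SCI and 307 of 315 in HBO vs sham kept their direction and side of the threshold, as did 442 of 459, 94 of 99 and 344 of 405 with a library left out. Direction changed for Kcnj8 in SCI vs sham (0.00 without a filter, -0.24 to 0.14 with a library left out), Kcnj16 and Kcnq1ot1 in HBO vs sham (-0.72 to 0.38, and -0.21 to 0.01), and in HBO vs SCI Kcnj10 (-0.18 to 0.02), Kcnj15 (-0.44 to 0.76) and Kcna6 (-1.08 to 0.17). The cause was not tested. Kcnj15 in SCI vs sham had no value in the fit of only those groups, where it did not pass the filter. Depth limits the genes under 1 CPM, which were given as levels only or with few counts.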
